A study of Drosophila melanogaster with 90 samples.

Results

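The genes of the Drosophila sex determination system, with chinmo and Phf7, were followed in ovarian RNA across 30 genotypes in which the gene sov was mutated, knocked down or left intact. They are Sxl, tra, tra2, dsx, fru, chinmo, Phf7, msl-2 and ix, found in the count files by matching the FlyBase symbol to its gene identifier, and they make up 9 of the 17493 genes counted. Each genotype had 3 libraries of polyA RNA, each made from 15 ovaries dissected 4 to 5 days after eclosion from females kept at 25 °C. All 9 genes passed the filter on low counts in every fit.

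The 7 sterile sov mutant genotypes were NP6070/NP6070, Dfsov, sovEA42 and sovML150 each over KG00226, and the same 3 each over sov2. Dfsov is a deficiency, Df(1)sov, on a chromosome that carries w1118. KG00226 is the insertion P{SUPor-P} on a y1 chromosome, and NP6070 is the insertion P{GawB} on a y w chromosome. The chromosome with sov2 also carries y1, cv1, v1 and f1, the sovML150 chromosome carries w1118, and no other marker is given for sovEA42. The 7 fertile sov mutant genotypes were KG00226/KG00226 and the pairings of KG00226, NP6070 and sov2 with one another in either written order. The 10 control genotypes, all fertile, were w1118/w1118 and single alleles over w1118. These were Dfsov, sovEA42 and sovML150, written in 1 order, and KG00226, NP6070 and sov2, written in both. Alleles recur within a class, so its genotypes are not fully independent, and the mutants lack the w1118 control chromosome.

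In the RNAi genotypes the hairpin TRiP.HMC04875 at attP40 was directed against sov (sterile females), and the control hairpin VALIUM20-mCherry at attP2 against mCherry (fertile females). Each was driven by da-Gal4 (GAL4-da.G32, ubiquitous), nos-Gal4 (GAL4::VP16-nos, germline) or tj-Gal4 (NP1624, ovarian soma). All RNAi females were heterozygous for a y1 sc v1 chromosome. The hairpins lie at different sites, so a sov hairpin effect includes any difference between the stocks.

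In Drosophila, the ratio of X chromosomes to autosomes sets Sxl, an RNA-binding protein made in females. Sxl directs the female splicing of tra, and the Tra protein with Tra2 directs the female splicing of dsx and the sex-specific splicing of fru, whose proteins are transcription factors. The female form of Dsx acts with the cofactor Ix, and Sxl also blocks the translation of msl-2, which encodes the male-limiting subunit of the dosage compensation complex. Phf7 encodes a chromatin reader whose protein marks male germ cells, and chinmo encodes a BTB zinc-finger factor that maintains male identity in the somatic stem cells of the testis. Because these switches work largely by splicing, translation or promoter choice, counts per gene cannot show which sex's form was made.

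The median library held 4346724.5 gene counts, the shallowest 2110 and the deepest 13164806. Dfsov/sov2 replicate 3, sovML150/KG00226 replicate 2 and sov2/w1118 replicate 1 held fewer than 100000, and these 3 enter the class fit, in which counts are summed per genotype, but no level and no other fit. KG00226/w1118 replicate 3 stood apart from the other controls, with 0.451% of its reads in transposable elements against 0.0283% to 0.071% in the 28 other control libraries of adequate depth. The targeted gene did not fall uniformly. Genotype means of sov ran from 81.7 CPM in Dfsov/KG00226 to 329 CPM in sovML150/sov2 among sterile mutants, and from 98.5 to 197 CPM among controls (CPM, counts scaled to the TMM-adjusted library size). The log2 change of sov in sterile mutants against controls was 0.46 ± 0.21 by CPM (SE, edgeR adjusted p = 0.0728) and -1.08 ± 0.29 relative to the ERCC spike-in RNA added to each library (adjusted p = 0.000818). With the sov hairpin it was -0.49 ± 0.12 with da-Gal4 (adjusted p = 0.00634), 0.06 ± 0.12 with nos-Gal4 (adjusted p = 0.907) and 0.50 ± 0.12 with tj-Gal4 (adjusted p = 0.00501, but -0.85 relative to ERCC). By CPM the level of sov mRNA therefore does not separate the labelled classes. Per 1000 ERCC counts, sterile means (262 to 783) lay below fertile mutant means (903 to 1650) but overlapped control means (490 to 1350). In sterile against fertile mutants the change of sov was 0.22 by CPM (edgeR adjusted p = 0.462). Relative to ERCC it was -1.71 (adjusted p = 1.25e-05), beside a median feature at -1.73.

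The scale matters for every direction given below. Relative to ERCC counts, the median of all tested features shifted by -1.33 on the log2 scale in sterile mutants against controls, by -1.73 in sterile against fertile mutants and by -1.36 with the sov hairpin under tj-Gal4. The shift was 0.39 in fertile mutants against controls, -0.21 with da-Gal4 and -0.08 with nos-Gal4. Changes are given by CPM, that is, relative to the bulk of the library. The ERCC-scaled value is given for many, but not all, changes whose sign differs, so its absence does not mean that the signs agree.

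Per kilobase of exon, the 9 genes fell into a well-expressed and a poorly expressed set. Averaged over the 30 genotypes, tra2 stood at 30.1 RPKM, Phf7 at 25.6, Sxl at 24.7, ix at 20.6 and tra at 13.9 RPKM. The other 4 were far lower on the same scale, with msl-2 at 1.78, fru at 0.756, dsx at 0.597 and chinmo at 0.317 RPKM. The poorly expressed set was also the most variable. The highest genotype mean was 70.6 times the lowest for chinmo, 14 times for dsx, 6.94 times for fru and 2.66 times for msl-2, against 1.49 times for Sxl and 1.79 times for tra. The depth behind the lowest of these values was small: a control library held 1 to 16 chinmo counts (median 5, 29 libraries) and 5 to 52 dsx counts, while Sxl held 666 to 2379.

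The switch genes Sxl, tra and tra2 showed no class-wide change. Genotype means of Sxl ran from 194.4 to 272.9 CPM in the 7 sterile mutants, from 192.2 to 252.5 CPM in the 7 fertile mutants and from 183.7 to 265.6 CPM in the 10 controls, so the classes overlapped almost entirely. The log2 change in sterile mutants against controls was 0.05 with a 95% interval of -0.12 to 0.23 (edgeR's quasi-likelihood F test, Benjamini-Hochberg adjusted p = 0.626). For tra it was -0.19, with an interval of -0.39 to 0.01 (adjusted p = 0.111), and for tra2 it was -0.18, with an interval of -0.39 to 0.03 (adjusted p = 0.143). Relative to ERCC, Sxl was at -1.34, tra at -1.49 and tra2 at -1.38, all near the shift of -1.33 of the median feature.

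The one clear departure among the switch genes was tra2 in the sovML150 genotypes. It stood at 36.96 and 26.25 CPM in sovML150/KG00226 and at 45.94, 39.49 and 38.86 CPM in sovML150/sov2, the lowest 2 genotype means of the 30, below the control genotypes, which ran from 51.18 to 60.55 CPM. Against its own single-allele heterozygotes, tra2 fell by 0.90 ± 0.12 on the log2 scale in sovML150/KG00226 (SE, edgeR adjusted p = 5.792e-09) and by 0.53 ± 0.10 in sovML150/sov2 (adjusted p = 5.292e-06). Both calls held in every alternative run, leaving out each replicate number included, although without replicate 1 or 3 only 1 library of sovML150/KG00226 was left. In the other 5 sterile genotypes tra2 passed no test. Without NP6070/NP6070, the class change of tra2 in sterile mutants against controls was -0.25 (adjusted p = 0.0396).

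The calls for Sxl and tra in single genotypes were small and did not hold in every alternative. Sxl was higher in Dfsov/sov2, where it stood at 271.7 and 274.1 CPM (0.30 ± 0.10, edgeR adjusted p = 0.00824), but at -1.67 relative to ERCC. It was lower in sovML150/KG00226, at 199.1 and 189.7 CPM (-0.26 ± 0.10, adjusted p = 0.0267). tra was lower in Dfsov/KG00226, at 7.595, 12.88 and 8.927 CPM (-0.42 ± 0.16, adjusted p = 0.0336). The Dfsov/sov2 call was lost without replicate 1 (0.332) or 2 (0.315), each of which left 1 library of that genotype. The sovML150/KG00226 call was lost without replicate 1 (-0.303) or 3 (-0.264), which again left 1 library. It was also lost with DESeq2 (adjusted p = 0.0727), with no filter on low counts (adjusted p = 0.0921) and with the shallow libraries (adjusted p = 0.0686). The tra call was lost without replicate 1 or 3 and with no filter on low counts. tra shares 74 bp of exon with l(3)73Ah on the opposite strand, and the libraries were stranded. Sxl shares 161 bp of exon with short annotated features on its own strand.

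Among the effectors, dsx rose in sterile mutants, though unevenly. Genotype means ran from 2.14 to 22.28 CPM (median 9.236) in sterile mutants, from 1.586 to 4.426 CPM in fertile mutants and from 1.92 to 5.561 CPM in controls. Of the 7 sterile genotypes 5 had means above every control genotype mean, while Dfsov/KG00226 and NP6070/NP6070 lay inside the control range. The log2 change was 1.76 ± 0.35 against controls, with an interval of 1.04 to 2.49 (edgeR adjusted p = 0.000309), and 2.04 ± 0.40 against fertile mutants (adjusted p = 0.000382). Relative to ERCC these became -0.19 ± 0.37 (adjusted p = 0.632) and -0.20 ± 0.40 (adjusted p = 0.634), values above the shifts of -1.33 and -1.73 of the median feature but not above 0. In fertile mutants against controls the change of dsx was -0.27, with an interval of -1.02 to 0.48 (0.01 relative to ERCC).

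The libraries within the high dsx genotypes were themselves spread. The values were 32.27 and 12.28 CPM in Dfsov/sov2, 26.64, 6.245 and 8.064 in sovEA42/KG00226, 7.793, 11.9 and 8.016 in sovEA42/sov2, 8.274 and 9.768 in sovML150/KG00226 and 22.46, 15.47 and 24.51 in sovML150/sov2. All of these but 1 lay above the 29 control libraries of adequate depth, which ran from 1.256 to 6.905 CPM, and the exception was the 6.245 CPM of sovEA42/KG00226 replicate 2. Against their own heterozygotes the changes ran from 1.33 ± 0.39 in sovML150/KG00226 (edgeR adjusted p = 0.0039; -1.23 relative to ERCC) to 2.99 ± 0.34 in Dfsov/sov2 (adjusted p = 2.307e-10). The call in sovEA42/KG00226 (1.65 ± 0.34, adjusted p = 0.000113) was lost without replicate 1 (0.90, adjusted p = 0.073). That in sovML150/KG00226 was lost without replicate 3 (1.05), which left 1 library of that genotype. In NP6070/NP6070 dsx stood at 2.311, 2.38 and 1.728 CPM, and its change was -0.38, with an interval of -1.21 to 0.45.

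fru, which is best known for its neuronal role in male courtship, moved in both directions. Genotype means ran from 3.963 to 27.51 CPM in sterile mutants, from 9.234 to 15.29 CPM in fertile mutants and from 10.02 to 16.8 CPM in controls. The class change was -0.25, with an interval of -0.68 to 0.17 (edgeR adjusted p = 0.323), and without sovML150/sov2 it was -0.49 (adjusted p = 0.0325). fru fell in sovEA42/KG00226, to 2.805, 5.051 and 4.032 CPM (-1.80 ± 0.24, adjusted p = 3.315e-08), and in Dfsov/KG00226, to 6.883, 5.589 and 8.532 CPM (-1.05 ± 0.21, adjusted p = 7.931e-05). It rose by CPM in sovML150/sov2, to 31.65, 32.98 and 17.9 CPM (1.03 ± 0.20, adjusted p = 1.318e-05), but was at -1.46 relative to ERCC. All 3 calls held in the alternatives that kept scaling by the library. The libraries of sovEA42/KG00226 all lay below and those of sovML150/sov2 all above the control libraries, which ran from 8.488 to 17.69 CPM, while Dfsov/KG00226 reached just into that range.

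ix showed no class change, at -0.10 with an interval of -0.34 to 0.14 in sterile mutants against controls (edgeR adjusted p = 0.518). Its only call was in a fertile genotype, NP6070/sov2, with 22.43, 19.74 and 21.47 CPM (0.49 ± 0.16, adjusted p = 0.0226), which lost significance without any of the 3 replicate numbers. The same alleles written as sov2/NP6070 had 15.5, 13.03 and 19.35 CPM, below all 3 of those values.

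msl-2 was modestly higher in sterile mutants by CPM. Genotype means ran from 6.789 to 10.98 CPM in sterile mutants, from 6.001 to 7.183 CPM in fertile mutants and from 4.122 to 7.922 CPM in controls, with 5 of the 7 sterile genotypes above every control. The change was 0.58 ± 0.13 against controls (edgeR adjusted p = 0.00105) but -0.83 ± 0.34 relative to ERCC (adjusted p = 0.0208). Against fertile mutants it was 0.40 ± 0.15 (adjusted p = 0.0361; -1.42 relative to ERCC), and this call did not hold with no filter on low counts (adjusted p = 0.102) or in 12 of 28 fits that left out a genotype or replicate number. Across the 7 fertile genotypes the change against heterozygotes was positive in all 7, from 0.02 to 0.40, and passed the test in 0. It passed by CPM in 4 sterile genotypes, from 0.66 in sovEA42/KG00226 to 0.91 in NP6070/NP6070 and sovML150/sov2, and each of these 4 calls was lost without at least 1 replicate number. Relative to ERCC it was 0.77 in NP6070/NP6070 (adjusted p = 0.432) and negative in the other 3. msl-2 shares 488 bp of exon with features on its own strand, a microRNA gene and a transposon insertion among them, so reads there cannot be assigned with certainty.

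Phf7 mRNA did not differ between classes. Genotype means ran from 43.13 to 75.39 CPM in sterile mutants, from 56.41 to 75.16 CPM in fertile mutants and from 54.7 to 84.83 CPM in controls, and the change in sterile mutants against controls was -0.09, with an interval of -0.31 to 0.12 (edgeR adjusted p = 0.497). The genotypes split. Phf7 fell in sovML150/sov2, to 41.86, 43.97 and 43.55 CPM (-0.47 ± 0.10, adjusted p = 7.074e-05), and in Dfsov/sov2, to 49.59 and 45.91 CPM (-0.36 ± 0.11, adjusted p = 0.00435). It was higher in Dfsov/KG00226, at 77.61, 78.01 and 70.55 CPM (0.24 ± 0.09, adjusted p = 0.0203), but at -0.41 relative to ERCC. The call in sovML150/sov2 held in every alternative, while that in Dfsov/KG00226 was lost without replicate 1 or 2. That in Dfsov/sov2 was lost without replicate 2, which left 1 library of that genotype.

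chinmo gave the largest class change of the 9 genes. In sterile mutants its libraries held 4.747, 1.458 and 2.133 CPM (Dfsov/KG00226), 14.31 and 12.81 (Dfsov/sov2), 1.891, 2.38 and 4.319 (NP6070/NP6070), 2.805, 4.592 and 5.455 (sovEA42/KG00226), 10.96, 8.306 and 4.116 (sovEA42/sov2), 27.58 and 11.6 (sovML150/KG00226) and 32.67, 19.95 and 19.94 CPM (sovML150/sov2). Libraries of fertile mutants ran from 0.463 to 2.742 CPM (median 1.206, 21 libraries), and those of controls from 0.204 to 4.246 CPM (median 0.902, 29 libraries). All 7 sterile genotype means, 2.779 to 24.19 CPM, lay above the highest control mean, 2.506 CPM in KG00226/w1118, and above the highest fertile mean, 1.679 CPM. That highest control mean rests on replicate 3, the library with the raised transposable element share, whose 4.246 CPM compares with 1.678 and 1.593 CPM in the other two.

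The fold against controls was 8.9, a log2 change of 3.15 ± 0.39 with an interval of 2.34 to 3.97 (edgeR adjusted p = 1.126e-06), and the log2 change against fertile mutants was 3.02 ± 0.45 (adjusted p = 1.934e-05). Leaving out any 1 genotype, any 1 replicate number, the shallow libraries or KG00226/w1118 replicate 3 gave changes from 2.84 to 3.51 against controls. Relative to ERCC chinmo was still higher than in controls (1.28 ± 0.38, adjusted p = 0.00208), against a median feature at -1.33, but the difference from fertile mutants was 0.75 ± 0.42 (adjusted p = 0.0885). In fertile mutants against controls the change was 0.13, with an interval of -0.70 to 0.96, so a change of up to about that upper bound is not excluded.

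Across the 9 genes, 3 of 9 were called in sterile mutants against controls, all 3 of them higher, beside 44.4% of all 8449 features called (24.6% higher). The median of the members was -0.09 on the log2 scale and that of all features 0. In sterile against fertile mutants 3 of 9 were called, all 3 higher, beside 35.7% of features (21.4% higher), and in fertile mutants against controls 0 of 9, beside 3.93% (0 with DESeq2 too). At an unadjusted p under 0.05 the count in fertile mutants was also 0. The share of members called in sterile mutants was no greater than that of features at large.

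**Figure D1:**
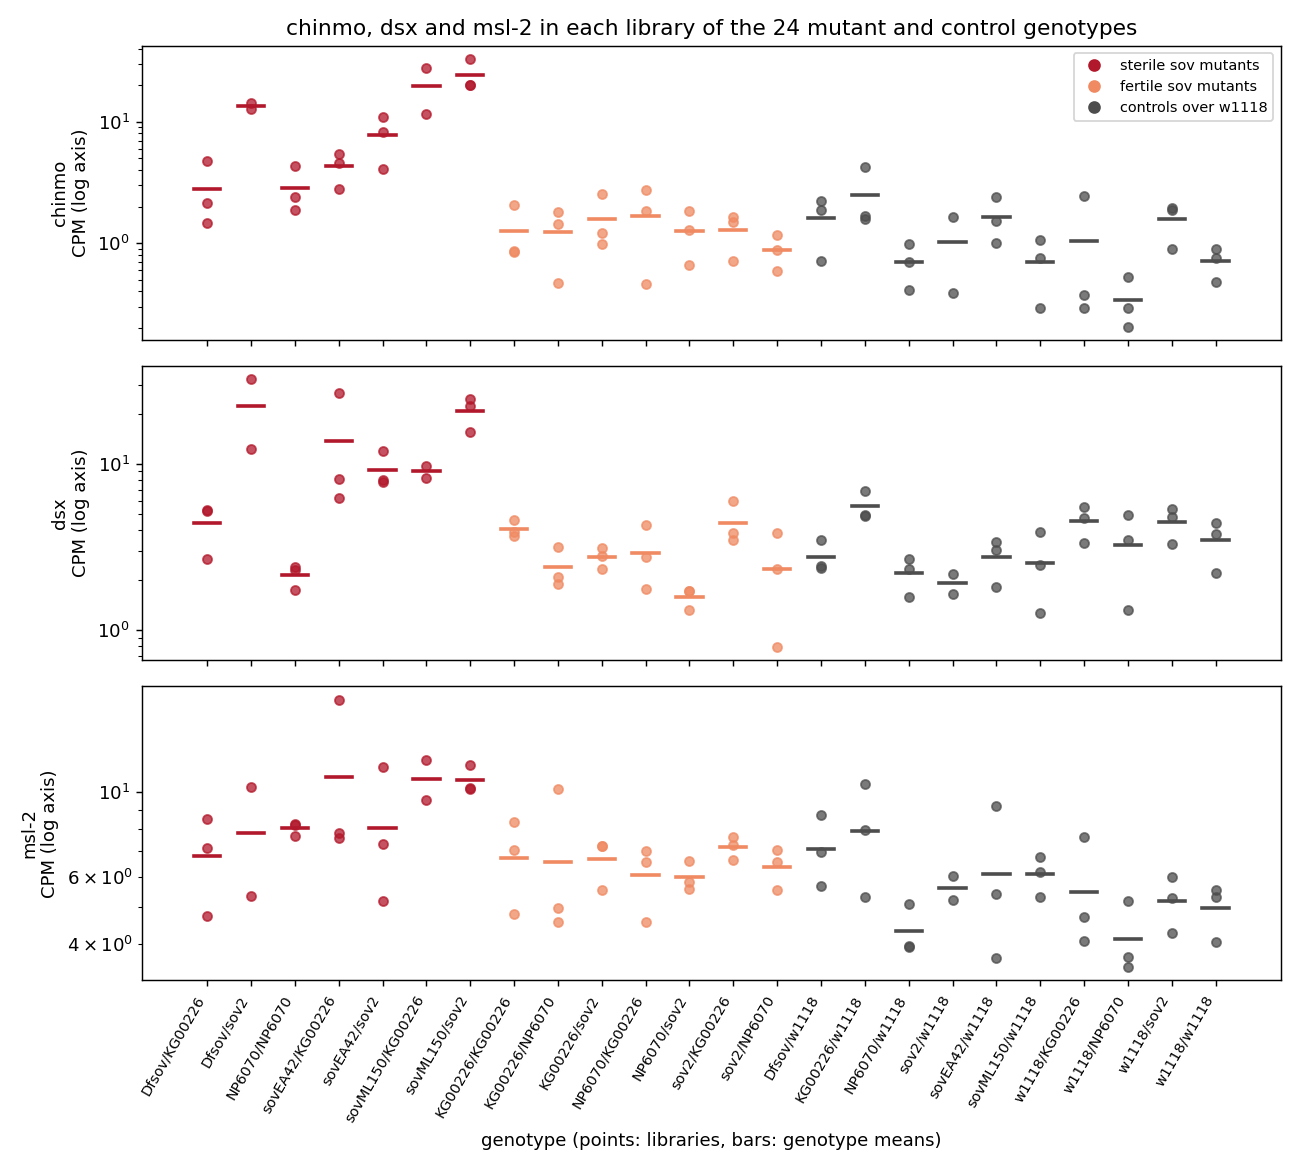
Level of chinmo, dsx and msl-2 in CPM (log axes) for each library (points) with the genotype mean (bars), for the sterile mutants, fertile mutants and controls from left to right; libraries under 100000 gene counts are left out. All 7 sterile means of chinmo lie above the highest control mean of 2.506 CPM, while for dsx 5 of 7 and for msl-2 5 of 7 do; relative to ERCC counts the class changes of dsx and msl-2 become -0.19 and -0.83 on the log2 scale.

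Against their own heterozygotes, chinmo and dsx were both called higher in 5 of 7 sterile genotypes and neither was called in Dfsov/KG00226. chinmo rose in 6 of 7 sterile genotypes and 0 of 7 fertile ones. The changes were 4.70 ± 0.42 in sovML150/sov2 (edgeR adjusted p = 4.979e-14), 4.25 ± 0.46 in sovML150/KG00226, 3.28 ± 0.45 in Dfsov/sov2, 2.57 ± 0.54 in NP6070/NP6070 (adjusted p = 0.00024), 2.47 ± 0.43 in sovEA42/sov2 and 1.55 ± 0.45 in sovEA42/KG00226 (adjusted p = 0.00502). Of these, the call in sovEA42/KG00226 was lost without replicate 2 (1.16, adjusted p = 0.142). In Dfsov/KG00226, the sterile genotype with the lowest chinmo level, the change was 0.83 with an interval of -0.11 to 1.77 (adjusted p = 0.153). dsx rose in 5 of 7 sterile genotypes and 0 of 7 fertile ones, and NP6070/NP6070 had a rise of chinmo with dsx at -0.38, although the difference between the 2 genes was not tested. Relative to ERCC the change of chinmo was 0.32 in sovEA42/KG00226 (adjusted p = 0.539) and -0.07 in Dfsov/KG00226, and dsx was called higher in 0 of the 5, with values from -1.23 to 0.83.

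Features called in these same contrasts made up 40% of all 8751 in Dfsov/KG00226, 50.2% in Dfsov/sov2, 26% in NP6070/NP6070, 38.3% in sovEA42/KG00226, 39.5% in sovEA42/sov2, 52.2% in sovML150/KG00226 and 62.7% in sovML150/sov2. The members called numbered 3, 4, 2, 4, 2, 5 and 6 of 9 in that order. In the fertile genotypes the share of features called was 3.18% in KG00226/KG00226, 4.57% in KG00226/NP6070, 6.9% in KG00226/sov2, 25% in NP6070/KG00226, 18.5% in NP6070/sov2, 3.91% in sov2/KG00226 and 12.4% in sov2/NP6070. The one member called among these 7 genotypes was ix in NP6070/sov2. Contrasts that share an allele share heterozygotes, so these values are not independent of one another.

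The order of genotypes by chinmo was sovML150/sov2, sovML150/KG00226, Dfsov/sov2, the sov hairpin with da-Gal4, sovEA42/sov2, the sov hairpin with tj-Gal4, sovEA42/KG00226, NP6070/NP6070, Dfsov/KG00226 and then KG00226/w1118. Between neighbours in this order of all 30 genotypes the libraries overlapped everywhere except between Dfsov/sov2 (14.31 and 12.81 CPM) and the sov hairpin with da-Gal4 (9.56, 7.98 and 12.45 CPM). For dsx no neighbouring pair among the 30 was separated.

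**Figure D2:**
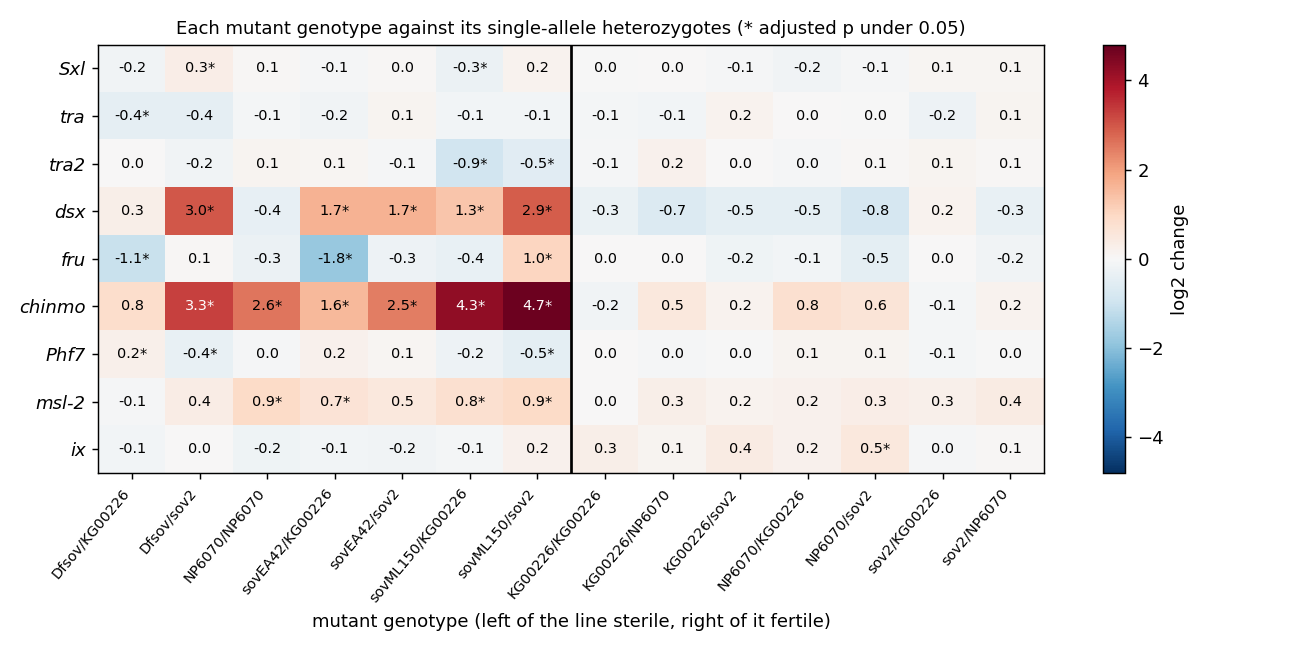
log2 change of each of the 9 genes (rows) in each mutant genotype (columns, sterile left of the line, fertile right of it) against the mean of its single-allele heterozygotes, with an asterisk at an adjusted p under 0.05 (edgeR). chinmo carries 6 asterisks and dsx 5 among the 7 sterile genotypes and 0 each among the fertile ones; relative to ERCC counts the sign flips for, among others, dsx in sovML150/KG00226 (-1.23) and fru in sovML150/sov2 (-1.46).

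The hairpin libraries asked in which cells loss of sov moves these genes. With da-Gal4, chinmo stood at 9.56, 7.98 and 12.45 CPM with the sov hairpin, against 1.263, 2.854 and 2.649 CPM with the mCherry hairpin. With tj-Gal4 it stood at 5.726, 8.297 and 4.705 CPM with the sov hairpin, against 1.637, 0.611 and 1.342 CPM with the mCherry hairpin. Under nos-Gal4 the chinmo values were 1.71, 1.405 and 2.435 CPM with the sov hairpin, against 1.867, 2.784 and 2.004 CPM with the mCherry hairpin. The hairpin groups did not overlap with da-Gal4 or tj-Gal4 and overlapped with nos-Gal4.

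The log2 change of chinmo was 2.15 ± 0.35 with da-Gal4 (4.44-fold, edgeR adjusted p = 0.000272), 2.35 ± 0.38 with tj-Gal4 (5.08-fold, adjusted p = 0.000179) and -0.28 with nos-Gal4, with an interval of -1.16 to 0.60 (adjusted p = 0.858). The germline effect minus the somatic effect was -2.62 ± 0.58 (adjusted p = 0.0101), past the threshold without any 1 of the 12 libraries (-2.86 to -2.34). Relative to ERCC the da-Gal4 and tj-Gal4 changes were 2.04 ± 0.52 (adjusted p = 0.00266) and 1.14 ± 0.55 (adjusted p = 0.0436), and the difference between drivers was -1.50 ± 0.80 (adjusted p = 0.0735), while the median feature stood at 1.27. The level of sov mRNA did not fall by CPM with nos-Gal4 or tj-Gal4.

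dsx followed the same drivers with more spread. With da-Gal4 it stood at 6.677, 6.881 and 8.806 CPM with the sov hairpin, against 1.516, 2.854 and 2.384 CPM with the mCherry hairpin (1.72 ± 0.44, edgeR adjusted p = 0.00878). With tj-Gal4 it stood at 7.019, 11.27 and 11.76 CPM with the sov hairpin, against 2.104, 2.138 and 6.71 CPM with the mCherry hairpin (1.42 ± 0.36, adjusted p = 0.0109). Under nos-Gal4 the dsx values were 1.578, 2.107 and 3.787 CPM with the sov hairpin, against 2.8, 2.784 and 3.34 CPM with the mCherry hairpin (-0.37, interval -1.34 to 0.59). The groups did not overlap with da-Gal4 or tj-Gal4, although mCherry replicate 3 under tj-Gal4 reached nearly to the sov hairpin values.

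The tj-Gal4 call of dsx was lost without mCherry replicate 1 (1.12, edgeR adjusted p = 0.0825) or replicate 2 (1.18, adjusted p = 0.0642), and was 2.28 without mCherry replicate 3. Relative to ERCC it was 0.22 ± 0.45 (adjusted p = 0.642). The difference between the nos-Gal4 and tj-Gal4 effects on dsx was -1.79 ± 0.59 (adjusted p = 0.0989) and passed the threshold without mCherry replicate 3 under tj-Gal4 (-2.65, adjusted p = 0.006) or with no filter on low counts (adjusted p = 0.0141).

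The other 7 genes gave 1 call among 21 tests. Sxl was lower with da-Gal4, at 204, 187.2 and 235 CPM with the sov hairpin, against 255.7, 237.2 and 267.8 CPM with the mCherry hairpin (-0.28 ± 0.10, edgeR adjusted p = 0.0485). The groups did not overlap, but the call was lost without any 1 of 5 of the 6 libraries and when the da-Gal4 libraries were fitted alone (adjusted p = 0.138). Phf7 with da-Gal4 stood at 68.9, 92.2 and 63.77 CPM with the sov hairpin, against 59.12, 53.91 and 61.73 CPM with the mCherry hairpin. Its change of 0.36 ± 0.13 missed the threshold (adjusted p = 0.0545) and passed it without sov hairpin replicate 3 (0.45, adjusted p = 0.0187). Without that library tra was called too (-0.68, adjusted p = 0.0477), so the da-Gal4 count became 5 of 9. msl-2, higher in sterile mutants by CPM, was at -0.45 with da-Gal4 (interval -0.98 to 0.07) and 0.31 with tj-Gal4 (interval -0.18 to 0.79), and passed neither test by CPM. Relative to ERCC it was at -0.99 with tj-Gal4 (edgeR adjusted p = 0.0211), beside a median feature at -1.36.

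Of the 9 genes, 3 were called with da-Gal4, beside 21.1% of 7700 features, 2 with tj-Gal4, both higher, beside 11.8% (9.31% higher), and 0 with nos-Gal4, beside 2.62% (0 with DESeq2, and 0 at an unadjusted p under 0.05). In the difference between the nos-Gal4 and tj-Gal4 effects 1 was called, beside 4.87%.

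**Figure D3:**
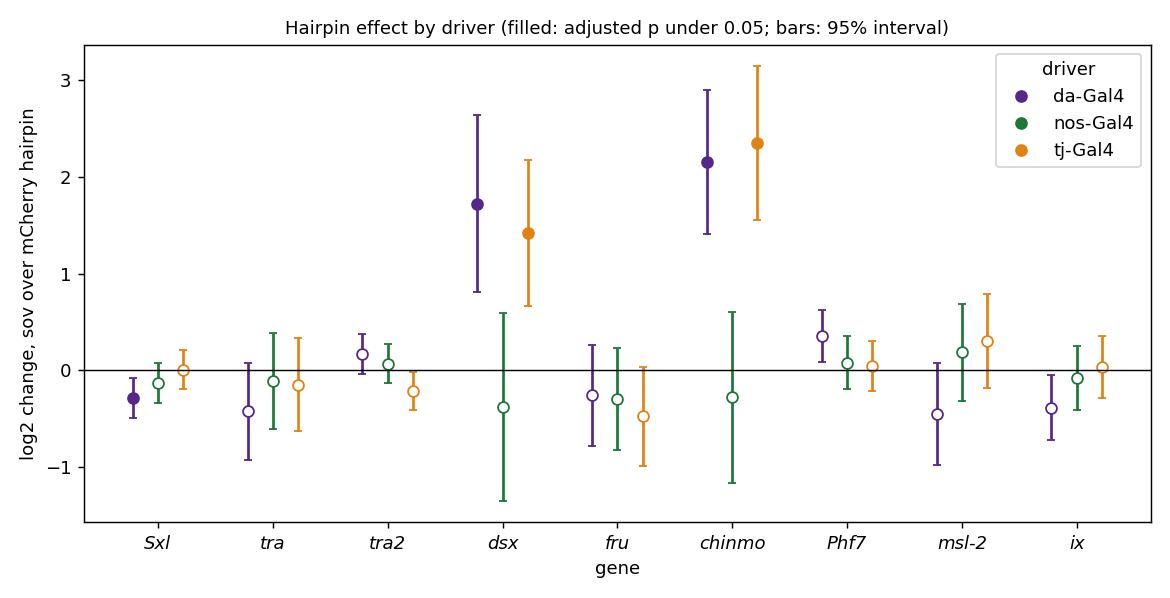
log2 change of each gene, sov over mCherry hairpin, for each driver, with 95% intervals from the fit of the 18 RNAi libraries; filled points have an adjusted p under 0.05 (edgeR). chinmo and dsx lie at 2.15 and 1.72 with da-Gal4 and at 2.35 and 1.42 with tj-Gal4, and near or below 0 with nos-Gal4; relative to ERCC the tj-Gal4 value of dsx is 0.22 and those of Sxl, Phf7, msl-2 and ix turn negative.

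**Figure D4:**
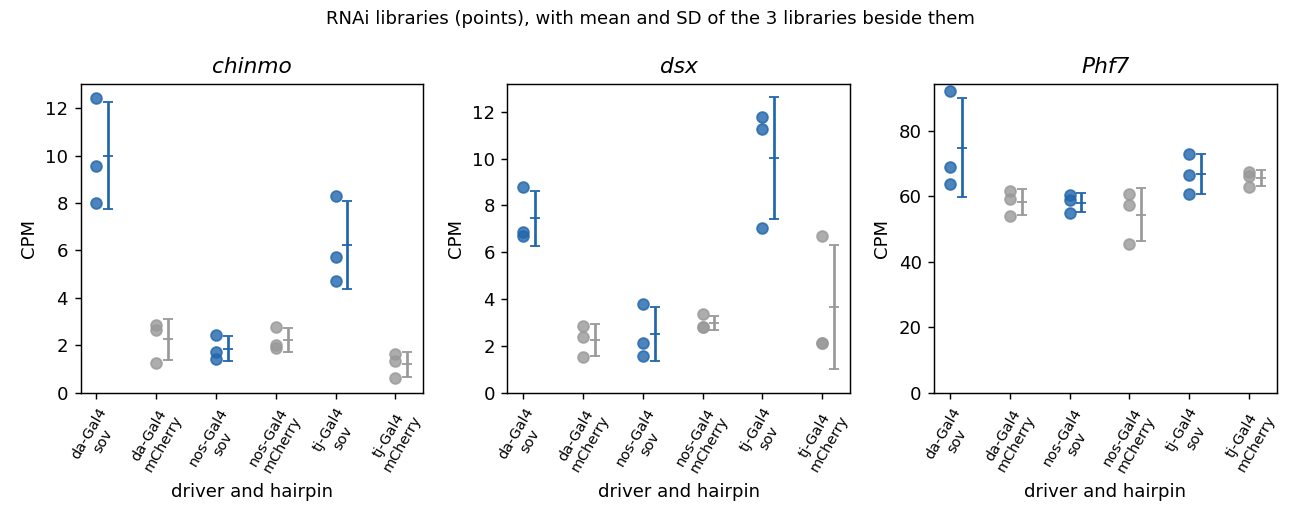
chinmo, dsx and Phf7 in CPM in each RNAi library (points), with the mean and SD of the 3 libraries beside them, the sov hairpin left of the mCherry hairpin for each driver. chinmo reaches 12.45 CPM with the sov hairpin under da-Gal4 and 8.297 CPM under tj-Gal4, and stays between 1.405 and 2.784 CPM in all 6 nos-Gal4 libraries.

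Most tested markers of muscle, hemocytes, neurons and fat body were higher by CPM in sterile mutants as a class, though not in each genotype. Bulk RNA cannot separate more cells of a type from more RNA per cell, and the tissue of origin was not tested. Summed over 12 muscle markers, genotype means ran from 374.8 to 13350 CPM in sterile mutants and from 175.7 to 465.7 CPM in controls, and 11 of 11 tested markers rose (median 3.97; Mlc2 4.55 and Mhc 4.56; all 11 also relative to ERCC). Of 6 tested hemocyte markers 4 rose, Pxn (5.65) and Hml (5.62) among them, and srp fell. Of 5 tested neuronal markers 4 rose by CPM, with Snap25 at 4.01, although up to 5 of the 12 were at 0 in a sterile genotype and Syx1A and elav were negative relative to ERCC. Of 3 tested fat body genes 2 rose, Lsp2 (7.19) and Lsp1beta (4.37). Late egg chamber genes fell in 13 of 14 cases (median -2.37; Cp7Fa -3.14 and Cp36 -2.82), but not in each genotype. They summed to 30560 CPM in NP6070/NP6070 and 28630 CPM in Dfsov/KG00226, against 29490 to 62670 CPM in controls. In the other sterile genotypes the sums ran from 973.5 to 5948 CPM. Those were also the genotypes in which dsx was called higher against its heterozygotes, and a link was not tested.

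Ovarian soma and germline markers were present in every class. Of 9 tested markers of ovarian soma 3 rose and 3 fell by CPM, with Fas3 at 1.81 (-0.04 relative to ERCC) and zfh1 at 0.65 (-0.81 relative to ERCC). Relative to ERCC 1 of the 9 was higher and 7 were lower. Genotype means of tj ran from 13.8 to 180 CPM in sterile mutants (median 70.1) and from 125 to 263 CPM in controls (median 179). Of 8 germline markers 1 rose and 5 fell by CPM, with otu at -0.68 and bam at 1.09 (-0.47 relative to ERCC). Beside these lists, 44.4% of all features were called in the same comparison.

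The marker sums differed widely between the comparisons in which chinmo was called. In NP6070/NP6070, where chinmo was called higher and dsx was not, muscle markers summed to 374.8 CPM, against 175.7 and 246.4 CPM in its own heterozygotes NP6070/w1118 and w1118/NP6070 and up to 465.7 CPM in other controls. Its hemocyte markers summed to 186.6 CPM, below the control range of 195.2 to 353.4 CPM, and its neuronal markers to 96.42 CPM, above the control range of 57.79 to 78.08 CPM. In controls most of the hemocyte sum came from crq and srp (medians 166 and 91.1 CPM), with Hml at 1.54 CPM. Most of the neuronal sum there came from Syx1A (median 60.9 CPM), so neither sum measures the number of such cells. With da-Gal4, muscle markers summed to 573.2 CPM with the sov hairpin and 421.9 CPM with the mCherry hairpin, with 4 of 11 called higher (median 0.56) and 1 of 7 hemocyte markers (Ppn 1.36). Of 3 tested neuronal markers 1 rose there, para at 7.01. In that comparison both chinmo and dsx were called higher. With tj-Gal4 the sums were 2832 CPM with the sov hairpin and 274.3 CPM with the mCherry hairpin, 11 of 11 muscle markers rose (median 3.46) and 5 of 7 hemocyte markers rose. With nos-Gal4 the sums were 324.5 CPM with the sov hairpin and 308.8 CPM with the mCherry hairpin, and 0 of 11 were called. Means of para ran from 0.738 to 14.7 CPM over the sov hairpin genotypes, nos-Gal4 included, and from 0.0883 to 0.252 CPM over the mCherry ones. Relative to ERCC 1 of 3 neuronal markers was called higher with nos-Gal4 also, where chinmo and dsx were not called. The part of these cell types in the changes of chinmo and dsx was not tested.

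The 7 lists of genes around the members were read against the same background. Upstream of Sxl, the X-counting list had 1 gene higher and 1 lower of 6 tested in sterile mutants against controls. These were dpn, a bHLH repressor of Sxl (1.68, and -0.01 relative to ERCC), and upd1, a JAK-STAT ligand that counts among the X-linked signals (-0.78). Of 7 genes of Sxl splicing and the m6A machinery 2 were higher, the m6A reader Ythdc1 and vir (0.24 and 0.25), and both were negative relative to ERCC (-1.11 and -1.12).

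With da-Gal4, 3 of the same 7 were higher by CPM, nito (0.34), fl(2)d (0.35) and snf (0.29), beside 21.1% of 7700 features called. Relative to ERCC 0 of the 7 were called there. Sxl was called lower in that comparison by CPM, a call that did not hold in every alternative, and a link was not tested. With tj-Gal4 and nos-Gal4 the count by CPM was 0 of 7. Among the partners of msl-2 in dosage compensation, 4 of 7 were lower in sterile mutants, the helicase mle (-0.27), Clamp (-0.36), msl-3 (-0.35) and msl-1 (-0.14), in contrast to msl-2 itself by CPM. The median of the 7 was -0.13. No member of that list was called with any driver.

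In the female germline list, which holds ovo and otu, the differentiation factors bam and bgcn and the silencing genes egg and wde, 3 of 10 were higher and 2 lower in sterile mutants. bgcn rose by 3.17 ± 0.29 (edgeR adjusted p = 2.279e-08), also relative to ERCC (1.53), and stwl (0.57) and bam (1.09) were higher by CPM only (-0.92 and -0.47 relative to ERCC). otu (-0.68) and nanos (-0.38) fell. The H3K9 methylation genes egg and wde stood at -0.01 and 0.21 and were not called. With tj-Gal4, bgcn was higher (1.54; 0.29 relative to ERCC) and otu lower (-0.36). With da-Gal4, wde was higher (0.52) and mei-P26 lower (-0.42).

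Of 8 tested genes of the JAK-STAT pathway, which acts upstream of chinmo in the testis stem cell niche, 3 were higher and 1 lower in sterile mutants. These were zfh1 (0.65), the ligand upd3 (2.08, and 0.55 relative to ERCC), the kinase hop (0.49) and upd1 (-0.78), and zfh1 and hop were negative relative to ERCC (-0.81 and -1.04). Stat92E itself stood at -0.05. With tj-Gal4 hop (0.41; -0.94 relative to ERCC) and zfh1 (0.50; -0.82 relative to ERCC) were higher of 6 tested, and with da-Gal4 the receptor dome (0.35).

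Genes known as Dsx targets or partners moved in opposite directions, with 3 higher and 3 lower of 8. The patterning factors bab2 (3.18 ± 0.51, edgeR adjusted p = 2.23e-05), Abd-B (2.71 ± 0.50) and bab1 (2.95 ± 0.59) rose, also relative to ERCC (1.24, 0.89 and 1.00). The yolk protein genes fell, Yp2 by 1.77, Yp1 by 1.46 and Yp3 by 1.64 on the log2 scale. Late egg chamber genes were also low in most of these genotypes, but in or near the control range in NP6070/NP6070 and Dfsov/KG00226. With tj-Gal4 bab2 (2.64) and Abd-B (3.18) rose of 7 tested. With da-Gal4 0 of 7 were called although dsx rose there, and Yp1, Yp2 and Yp3 stood at 0.58, 0.46 and 0.46.

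Male germ cell genes were mostly too low to test. Of 18 in the files 5 passed the filter in the class fit, and 3 were higher by CPM and 1 lower. These were Rbp4 (2.00; 0.44 relative to ERCC), mia (0.98; -0.52 relative to ERCC), topi (0.93; -0.42 relative to ERCC) and twe (-0.34), and the 13 that failed the filter have no test. mia was also higher with da-Gal4 (2.21 ± 0.50, edgeR adjusted p = 0.00418; 2.11 relative to ERCC) and with tj-Gal4 (1.76 ± 0.56, adjusted p = 0.0471). Phf7, the member of the 9 with a male germline role, passed neither of those tests. With nos-Gal4 0 genes were called in all 7 lists.

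**Figure D5:**
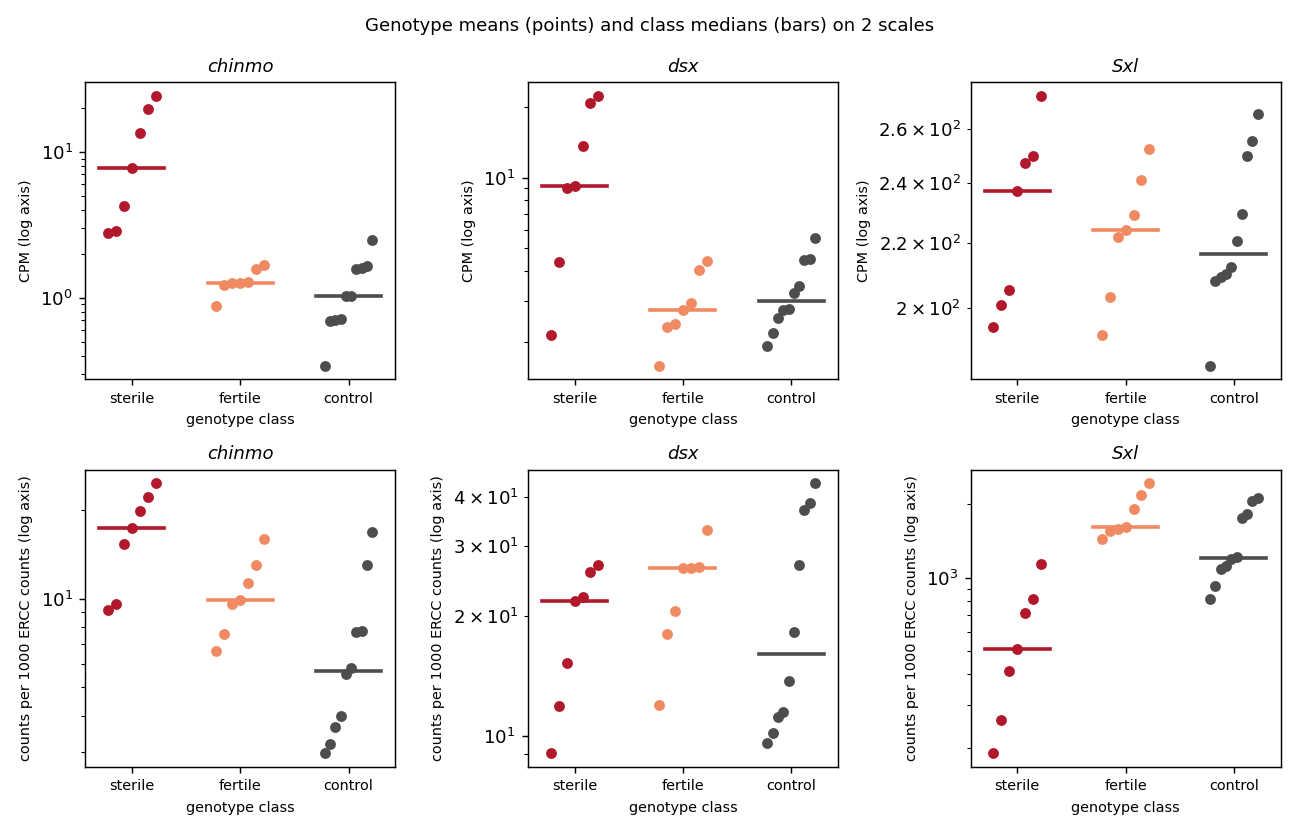
Genotype means (points) and class medians (bars) of chinmo, dsx and Sxl by CPM (upper row) and per 1000 ERCC counts (lower row, log axes) in sterile mutants, fertile mutants and controls. The median of chinmo in sterile mutants is the highest of the 3 classes on both scales, at 7.794 CPM and 17.4 per 1000 ERCC counts, whereas that of Sxl falls to 508 per 1000 ERCC counts in sterile mutants, against 1205 in controls, and that of dsx lies between the other classes.

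The features most like each member over the 30 genotype means were ranked by Pearson's r among 8784 features, as a description of points that share libraries and depth. chinmo and dsx had an r of 0.84 with each other, the highest among the 36 pairs of members. Those nearest to dsx were ths (0.942), an FGF ligand, frm (0.941) and the calcium channel gene Ca-alpha1T (0.939). Those nearest to chinmo were CG42342 (0.916), the potassium channel gene Sh (0.916) and CG7990 (0.906). Values for the other 7 members were lower, from 0.876 (tra2 with CG43672) down to 0.686 (ix with CG9705). They included Marf, Ccdc85 and r for Sxl, timeout, Swt1 and Urm1 for tra, and Kap-alpha3 and CtsL4 for tra2. They were CG2187, mamo and Sobp for fru, CG7101, FBgn0266421 and CG2202 for Phf7, Pdcd4, Xrp1 and CG15673 for msl-2, and cact and Atf-2 for ix.

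The genes lie on 5 chromosome arms of the release 6 genome (BDGP6). Sxl (FBgn0264270) spans X:7074550-7098053 and Phf7 (FBgn0031091) X:20160355-20165830, both on the minus strand, and sov is X-linked as well. tra (FBgn0003741) spans 3L:16590059-16591050, dsx (FBgn0000504) 3R:7924323-7967408 and fru (FBgn0004652) 3R:18414273-18545586, all on the minus strand. tra2 (FBgn0003742) spans 2R:14602004-14604337 and ix (FBgn0001276) 2R:11359437-11360163, both on the minus strand. chinmo (FBgn0086758) spans 2L:1651258-1704682 on the plus strand and msl-2 (FBgn0005616) 2L:3462218-3466112 on the minus strand. The 2 genes that rose most are long and unlinked, chinmo with 12618 bp of exon and dsx with 9167 bp, against 727 bp for ix. fru (18433 bp) and Sxl (9192 bp), which showed no class change, are longer than dsx.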

How the data were processed

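PolyA RNA was counted in 90 libraries. The deposited values are raw counts per gene, transposable element family and ERCC spike-in; tools listed in the submitters' processing notes are HTSeq 0.7.2, HISAT2 2.0.5 and CASAVA 1.8.2. Reads were stranded, single-end and 50 bp long, and the genome release was 6.21, per the labels and the series' design text. Between 12.55% and 63.09% of a library's reads fell in the 5 HTSeq summary entries, which were left out.

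Counts were tested with edgeR 4.0.16 (R 4.3.3; TMM scaling, filterByExpr, quasi-likelihood F test) over all genes and element families, with calls at a Benjamini-Hochberg adjusted p under 0.05. The class fit used counts summed per genotype (7 sterile, 7 fertile, 10 controls). The RNAi fit used 18 libraries in 6 groups. The genotype fit set each mutant against the mean of its single-allele heterozygotes, over libraries of at least 100000 counts. The RNAi and genotype p-values measure spread between libraries of a genotype. The standard error is the log2 change divided by the square root of F. RPKM is CPM per kilobase of annotated exon (release 6 annotation, in which 17365 of the identifiers were found). Alternatives were DESeq2 1.42.0, ERCC scaling, no low-count filter, a replicate block, other libraries in the fit and leaving libraries or genotypes out. A fit without KG00226/w1118 replicate 3 was chosen after seeing the data.

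On simulated counts the class fit recovered 83% of changes of 1 on the log2 scale and 93.9% of changes of 2, with 5.4% of calls false. Only 100 and 99 of 8395 features were changed there, with independent genotypes, whereas 44.4% of features were called in the data. These shares are averages over all features and do not give the power for low-count genes such as chinmo. The named genes were the 9 members, the 3 features most correlated with each, and up to 4 genes per list by smallest adjusted p. Members and lists were chosen with earlier results of these data known. No sequence is printed.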

Additional observations from a re-analysis of the deposited data

Results flagged for a closer look

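By CPM, the effect of the sov hairpin on chinmo differed between drivers by a test of the difference itself, at -2.62 on the log2 scale for nos-Gal4 minus tj-Gal4 (edgeR adjusted p = 0.0101, SE 0.58). Relative to ERCC the difference was -1.50 (SE 0.80, adjusted p = 0.0735) and was not called. chinmo was higher with the sov hairpin in 3 of 3 libraries under tj-Gal4 than in any mCherry library of that driver, and overlapped under nos-Gal4.

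Among the 7 fertile mutants, tra was lowest in sov2/KG00226, at 9.647 CPM, and its gap to the next genotype was large for the range of the group. The same alleles written as KG00226/sov2 gave 12.69, 11.31 and 14.17 CPM. This was 1 flag in 27 groups of genotype means checked, and chance alone flags about 1 in 20 such groups.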

How the results depend on the processing

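With DESeq2, the number of the 9 genes called was the same as with edgeR in each class and RNAi comparison. Over the genotypes the total stayed at 27, but Sxl lost its call in sovML150/KG00226 (adjusted p = 0.0727) and gained one in sovML150/sov2 (0.24, adjusted p = 0.0155). All sign changes came from scaling to ERCC counts, where a change was counted as reversed when its sign differed and it was past the threshold on either scale. On that scale the number called was 8 in sterile mutants against controls, 7 in sterile against fertile mutants, 8 with tj-Gal4, 6 for nos-Gal4 minus tj-Gal4 and 41 over the genotypes, in place of 27. Most features were called there too. They numbered 7600 of 8449 against controls and 7605 of 8449 against fertile mutants. With tj-Gal4 they numbered 7074 of 7700, and for nos-Gal4 minus tj-Gal4 6124 of 7700. Over the single genotypes they ran from 58 to 7802 of 8751.

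Reversed in sterile mutants against controls were Sxl (-1.34), dsx (-0.19) and msl-2 (-0.83), and against fertile mutants Sxl (-1.71), dsx (-0.20) and msl-2 (-1.42). With tj-Gal4 they were Sxl (-1.33), Phf7 (-1.30), msl-2 (-0.99) and ix (-1.27), and for nos-Gal4 minus tj-Gal4 Sxl (1.12) and ix (1.11). In Dfsov/KG00226 it was Phf7 (-0.41), and in Dfsov/sov2 Sxl (-1.67), fru (-1.97), msl-2 (-1.88) and ix (-1.95). In sovEA42/KG00226 they were tra2 (-1.24), Phf7 (-1.16) and msl-2 (-0.70), in sovEA42/sov2 Sxl (-0.77), in sovML150/KG00226 dsx (-1.23) and msl-2 (-1.94), and in sovML150/sov2 Sxl (-2.43), fru (-1.46), msl-2 (-1.63) and ix (-2.32). These follow shifts of the median feature of -1.33, -1.73, -1.36, 1.27, -0.62, -1.96, -1.31, -0.77, -2.68 and -2.56 in the same order.

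For nos-Gal4 minus tj-Gal4, 2 genes were called with no filter and 2 with the replicate block, dsx being the added one (adjusted p = 0.0414 with the block). The block also ended the Sxl call with da-Gal4 (adjusted p = 0.0521) and changed no other call. Same-numbered libraries showed little shared deviation (r from -0.13 to 0.24 in the RNAi groups), and the main fits did not pair them. Every r was over 0.1 in 1 of 46 pairs of mutant and heterozygote genotypes. With 3 libraries per genotype these values cannot decide whether the numbers pair the samples. Leaving out 1 replicate, the number called ran from 2 to 5 with da-Gal4, 1 to 2 with tj-Gal4, 1 to 2 for nos-Gal4 minus tj-Gal4 and 18 to 27 of 126 over the genotypes; leaving out genotypes or replicates gave 3 to 4 in sterile mutants against controls and 2 to 4 against fertile mutants. Of the 27 genotype calls, 14 held in all 8 alternatives other than ERCC scaling. In some of these, leaving out a replicate number left 1 library of Dfsov/sov2, sovML150/KG00226 or sov2/w1118. Without KG00226/w1118 replicate 3 the msl-2 call in sovEA42/KG00226 was lost (adjusted p = 0.0548) and Phf7 passed there (0.22, adjusted p = 0.0406). The cause was not tested. Low counts of chinmo limit the intervals in fertile mutants and controls.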
